A study of Mus musculus with 8 samples.

Results

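In mouse liver, 8 genes each had a pair of array probes that gave opposite or unequal answers to the question whether NZO or B6 mice express the gene more strongly. The genes were Thumpd1, Rbbp9, Med8, Ints11 (Cpsf3l in the files), Arsk, Apol10b, 4930581F22Rik and Tox4, out of 5379 genes with 2 or more tested probes. They were chosen by the measured strain differences themselves, as the difference of one of their probes lay far from that of the other, so the differences between strains at these probes are given as a description and without a test. In each gene the probe that set it apart is called here the divergent probe, and the other one the second probe.

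Liver RNA of 4 NZO and 4 B6 mice was measured on Agilent arrays of a single colour, 1 per animal. The labels give the strain as NZO/HiBomDife for the former and C57BL/6 for the latter. All animals were male, 6 weeks old and on a high fat diet with 45% fat, so no lean diet control was compared. NZO is a polygenic model of obesity and diabetes, and B6 is the lean strain from which the mouse reference sequence derives. The level of a probe is its log2 processed signal minus the 75th percentile of the same array, and a level of 0 therefore equals that percentile.

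A probe on these arrays is a single strand of 60 bases designed from a reference transcript. Labelled copies of the RNA bind to it, and the brightness of the spot depends on how much of the matching stretch is in the sample and on how well the sequences pair. A messenger RNA can end at more than one polyadenylation site, often after the hexamer AATAAA, and a probe downstream of the site in use has nothing to bind. Probes of one gene can therefore differ between strains through the amount of RNA, through the part of the transcript that is present, or through a base difference under the probe. The NZO sequence under the probes was not analysed here, so these cannot be told apart from the arrays.

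Of the genes, 6 are shown with a stretch of both probes because the distance between their probes was the same on the genome and on the transcript, so no intron lies between them. Each stretch is 30 bases of the 60-base probe, read from the array files, 5′ to 3′ on the strand of the transcript, with the hexamer AATAAA in capitals where the stretch holds it.
Thumpd1 divergent probe: gtgatccagggtaggaacttagcagttagt
Thumpd1 second probe: cagatatttttactgcattttgttcttggt
Rbbp9 divergent probe: cacatacataaAATAAActatgccaggtta
Rbbp9 second probe: tcactgaccgtggtcactttcagaacacag
Med8 divergent probe: ctgcttttgtagagttgacgaacagtggag
Med8 second probe: ttctgggtcttgAATAAAtgatagtttcct
Ints11 divergent probe: tctgccgagcacAATAAAtgttgtacaatc
Ints11 second probe: ctcacaacattgctcaaaaatggccttcct
Arsk divergent probe: ccaccaataggtagcaaatattttattttt
Arsk second probe: cgttctattgtaaactaccctaaagtgtct
Tox4 divergent probe: atcaacttttaaaaagatcagagcaaataa
Tox4 second probe: ggtcagacaacttgcctagaatgtcattgg

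Across the 8 genes, AATAAA on the strand of the transcript was found in 2 of 8 divergent probes (Rbbp9 and Ints11) and in 1 of 8 second probes (Med8), while 10.1% of the 55681 probes on the array hold it. On the opposite strand it was found in 1 divergent probe (Arsk) and in 3.74% of all probes, and the variant ATTAAA, held by 3.95% of all probes, was in none of the 16. A match describes the letters and is not a mapped polyadenylation site. In Thumpd1, Rbbp9 and Apol10b the divergent probe had a stop codon in each of its forward frames, as had the second probe of Med8. A forward frame free of stop codons was present in 5 of 8 divergent probes, in 7 of 8 second probes and in 79.3% of all probes. The second probes of Rbbp9 and Ints11 ended in a TGA that was the sole stop of their first frame. The GC content of the divergent probes ranged from 35% to 46.7% with a median of 40.8%, that of the second probes from 35% to 53.3% with a median of 44.2%, and the median of all probes was 43.3%. Exons and untranslated regions were not assigned to the probes, as no annotation of mm9, the build of the array files, was used here.

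The tissue was checked before the genes were compared. All 5 hepatocyte markers (Alb, Ttr, Apoa1, Cps1 and Tat) were above background on all 8 arrays, and none of them passed the thresholds between the strains. Their summed linear level, in multiples of the 75th percentile, was 3789 to 3917 in NZO and 3002 to 3766 in B6, and Alb was the most abundant. Of the 5 adipocyte markers, Adipoq, Plin1 and Lep were at background on every array, as were 4 of 6 markers of the exocrine pancreas (Cela3b, Pnlip, Cpa1 and Prss2). The 4 red blood cell markers were present on all arrays, and their summed level was 293 to 470 in NZO and 155 to 208 in B6, with Hba-a1 the most abundant. Hba-a1, an alpha globin, and Alas2, the heme synthesis enzyme of red blood cells, rose in NZO by 1.00 (SE 0.22) and 0.90 (SE 0.13) on the log2 scale, with limma adjusted p of 0.0183 and 0.0023. Hbb-b1, a beta globin, passed the unadjusted threshold with a difference of 0.81 (SE 0.25, limma adjusted p = 0.0704). In whole liver, fewer cells of a type and less RNA per cell cannot be told apart, and the part of red blood cells in the probe differences was not tested. The summed leukocyte markers were 10.8 to 18.8 in NZO and 10.8 to 13.4 in B6, with Cd3e the most abundant. These 5 markers had a median difference of -0.42. Itgax fell in NZO by 2.04 (SE 0.53, limma adjusted p = 0.0358) with 2 of the 4 NZO arrays above background. The others did not pass and went both ways, with Ptprc at -0.52, Cd68 at -0.42, Lyz2 at 0.41 and Cd3e at 0.33. The part of leukocytes in the probe differences was not tested. Skeletal muscle markers summed to 17.7 on the array of NZO 007 and to between 0.136 and 5.70 on the other 7 arrays, with Myh4 the most abundant, and none of them passed the thresholds. Their part in the probe differences was not tested.

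All 16 probes of the 8 genes entered the comparison, as each stood clearly above background in every mouse of NZO, of B6 or of both. In 7 of the 8 genes the divergent probe was lower in NZO, and in 6 of them it was not above background on any NZO array. Tox4 was the reverse case, with a divergent probe far higher in NZO. The second probe was above background on all 8 arrays in 6 genes, which were Thumpd1, Rbbp9, Med8, Ints11, Arsk and Tox4. Over the array, 22% of the 27643 tested probes had strains whose values did not overlap, and 7.08% were called lower and 5.17% higher in NZO at an unadjusted p of 0.05 and a log2 difference of 0.7, which made 12.2% in either direction. With a limma adjusted p of 0.05 these shares were 5.28%, 4.34% and 9.62%. The number called and its balance depended on the treatment of the background, with 614 probes lower and 652 higher under normexp correction, against 1957 and 1429. Nothing about the 8 genes is read from these shares, since the same differences chose them.

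**Figure D1:**
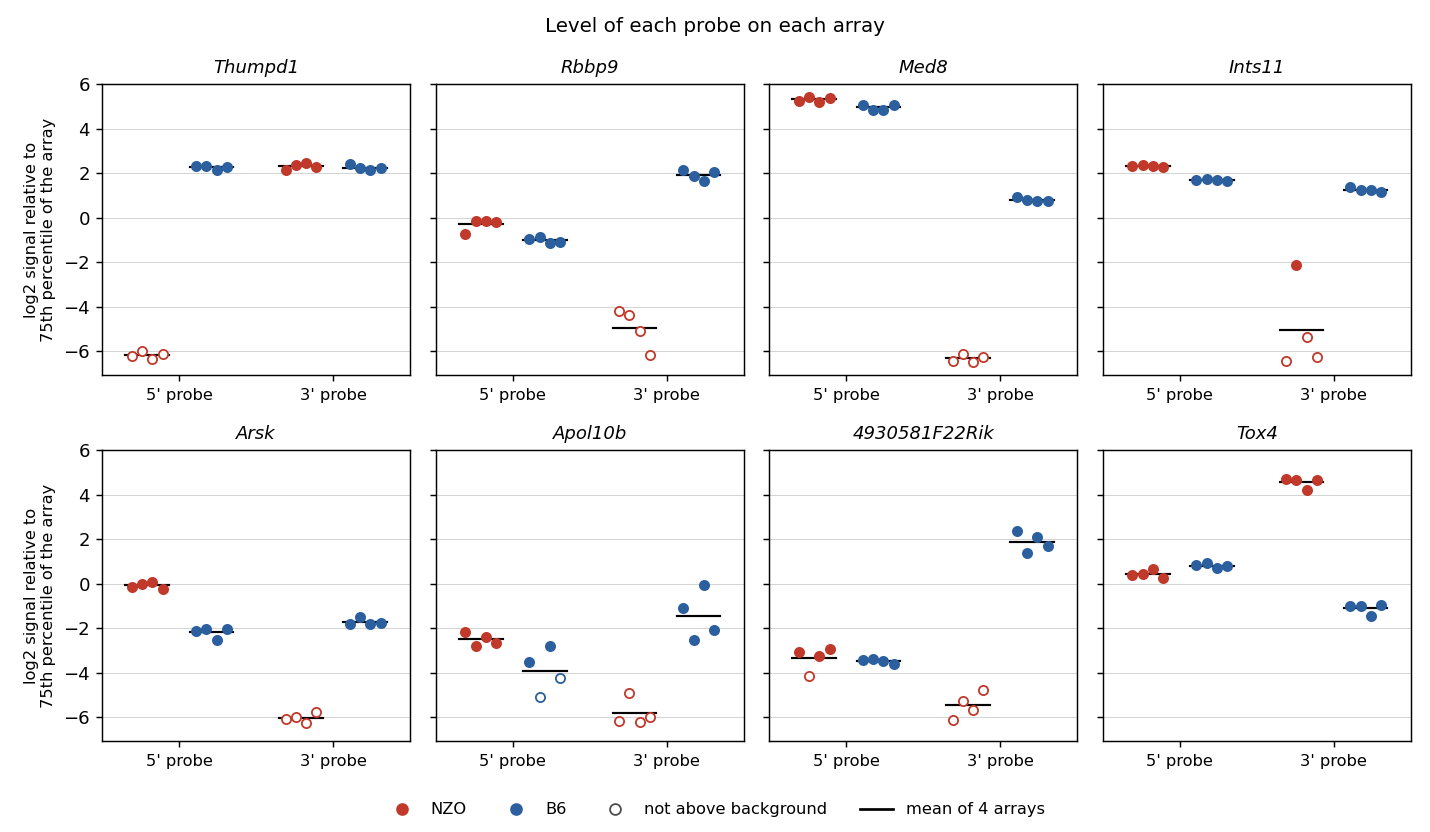
Level of both probes of each gene on the 8 arrays, as log2 signal relative to the 75th percentile of the array, with NZO in red, B6 in blue, open circles for arrays on which the probe was not above background, and a line at the mean of 4 arrays. Probes are ordered 5′ to 3′ along the strand of the gene. The divergent probe is the 5′ one in Thumpd1 and the 3′ one in the other 7 genes. It lies near or below -4 in NZO except in Tox4, where NZO lies at 4.57, and for Ints11 in 1 NZO mouse at -2.10.

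Med8, Ints11 and Tox4 act in transcription and in the processing of nascent RNA. Med8 encodes a subunit of Mediator, the complex that connects transcription factors with RNA polymerase II. Its second probe (chr4:118087655-118087714 on mm9, plus strand) read 5.26, 5.43, 5.19 and 5.36 in the 4 NZO mice and 5.07, 4.85, 4.82 and 5.06 in the 4 B6 mice. The strains did not overlap, and NZO was higher by 0.36 on the log2 scale. At the divergent probe, 571 bases further downstream (chr4:118088226-118088285), the NZO levels were -6.41, -6.11, -6.48 and -6.24 and the B6 levels were 0.91, 0.81, 0.76 and 0.76. All NZO arrays were at background there and all B6 arrays above it. B6 was at least 31.6-fold higher at this probe. Such a bound sets the B6 mean against the lowest level found above background on each NZO array, or against the probe's own level where that was higher. It is given because levels below background have no order. That lowest level is not a strict detection limit, as some probes above it were not called above background. The bound was computed on the processed signal only, and the gaps given below shrank under other treatments of the background.

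Ints11 encodes the endonuclease of Integrator, which cleaves small nuclear RNAs and nascent transcripts. The second probe (chr4:155262735-155262794, plus strand) gave 2.32, 2.38, 2.31 and 2.26 in NZO and 1.67, 1.74, 1.71 and 1.66 in B6. NZO was higher on all arrays, with means of 2.32 ± 0.05 and 1.70 ± 0.04 (SD, n = 4). The divergent probe, 418 bases downstream (chr4:155263153-155263212), gave -6.44, -2.10, -5.34 and -6.26 in NZO and 1.38, 1.24, 1.25 and 1.14 in B6. NZO was lower throughout, but 1 of the 4 NZO mice, NZO 003, was above background, and no bound is given for this reason. The same mouse was not above background at the other 6 divergent probes that were low in NZO. Pusl1, a gene on the opposite strand with a probe 413 bases from the divergent one, had a difference of -0.42.

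Tox4 encodes an HMG box protein that belongs to the PTW/PP1 phosphatase complex, which acts on chromatin and RNA polymerase II. At its second probe (chr14:52913392-52913451, plus strand) the NZO levels were 0.41, 0.43, 0.65 and 0.25 and the B6 levels were 0.82, 0.94, 0.73 and 0.78. NZO was lower on all arrays, by 0.38 on the log2 scale in the means. At the divergent probe, 1733 bases downstream (chr14:52915125-52915184), NZO reached 4.71, 4.64, 4.23 and 4.68 whereas B6 stayed at -1.02, -1.01, -1.44 and -0.95. The probe was above background on all 8 arrays, so this difference of 5.67 was measured in both strains. A probe of Mettl3, on the opposite strand and 579 bases from the divergent probe, differed by -0.06 with overlapping strains.

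Thumpd1, Rbbp9 and Arsk encode enzymes or proteins that assist them. Thumpd1 is a THUMP domain protein that serves as adaptor of Nat10 in the acetylation of transfer RNA. Its divergent probe (chr7:126858835-126858894, minus strand) read -6.22, -5.98, -6.36 and -6.12 in NZO and 2.34, 2.32, 2.13 and 2.28 in B6. NZO was at background and B6 at least 86.8-fold higher. The second probe lies only 175 bases downstream (chr7:126858660-126858719), and its levels were 2.14, 2.38, 2.46 and 2.28 in NZO and 2.39, 2.22, 2.14 and 2.25 in B6. The strains overlapped there, with means of 2.32 ± 0.14 and 2.25 ± 0.11 (SD, n = 4). Thumpd1 was the only one of the 8 genes whose divergent probe was the upstream one. A probe of Acsm4 on the opposite strand, 942 bases from the divergent probe, was at background in both strains.

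Rbbp9 encodes a serine hydrolase known to bind the retinoblastoma protein. The second probe (chr2:144369557-144369616, minus strand) gave -0.73, -0.12, -0.15 and -0.17 in NZO and -0.95, -0.85, -1.13 and -1.08 in B6. NZO was higher on all arrays, by 0.71 in the means, and NZO 007 was closest to B6. The divergent probe, 1374 bases downstream (chr2:144368183-144368242), gave -4.19, -4.35, -5.07 and -6.16 in NZO and 2.13, 1.90, 1.64 and 2.08 in B6. All NZO arrays were at background, and B6 was at least 67.9-fold higher. A probe of Polr3f, a gene on the opposite strand, lies 1283 bases from the divergent probe and had a difference of 0.36 with overlapping strains.

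Arsk encodes arylsulfatase K, a lysosomal sulfatase that takes part in the breakdown of glycosaminoglycans. Its probes moved in opposite directions. The second probe (chr13:76199926-76199985, minus strand) gave -0.16, -0.00, 0.07 and -0.22 in NZO and -2.13, -2.05, -2.54 and -2.02 in B6. NZO was higher by 2.11 on the log2 scale without overlap, with means of -0.08 ± 0.14 and -2.18 ± 0.24 (SD, n = 4). At the divergent probe, 1117 bases downstream (chr13:76198809-76198868), the NZO levels were -6.08, -6.0, -6.27 and -5.76 and the B6 levels were -1.79, -1.49, -1.83 and -1.77. NZO was at background on all arrays and B6 at least 5.47-fold higher.

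**Figure D2:**
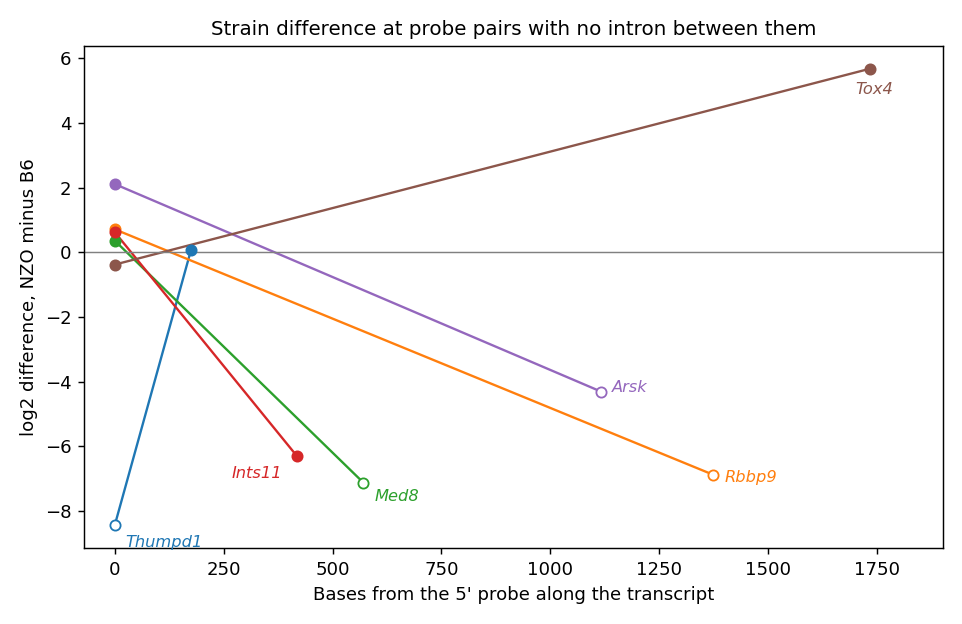
Difference between NZO and B6 (log2, means of 4 arrays per strain) at both probes of the 6 genes with no intron between the probes, against the distance in bases from the upstream probe. Open circles mark probes not above background on any array of 1 strain, where the difference depends on the background and the fold is only a bound. The difference changed by 6.05 over 1733 bases in Tox4, upwards, and by -6.42 to -8.50 between the second and the divergent probe in Thumpd1, Rbbp9, Med8, Ints11 and Arsk, over 175 to 1374 bases.

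The last pair of genes differed from the others in the layout of the probes. Apol10b belongs to the apolipoprotein L family, which is expanded in a cluster on mouse chromosome 15. Its second probe (chr15:77426425-77426484, minus strand) starts at base 71 of the transcript, and the files assign it to transcripts of Apol11b and Apol11a as well, so it cannot be read as Apol10b alone. It gave -2.15, -2.79, -2.37 and -2.65 in NZO and -3.51, -5.06, -2.79 and -4.25 in B6. The strains overlapped, and 2 of the 4 B6 arrays were not above background. The divergent probe lies 1850 bases downstream on the transcript and 11832 bases away on the genome (chr15:77414593-77414652). It gave -6.16, -4.90, -6.21 and -5.99 in NZO and -1.10, -2.54, -0.08 and -2.07 in B6, so that NZO was at background and B6 at least 6.61-fold higher. The SD of the B6 mice was 1.09 at this probe, the largest for B6 among the 16 probes.

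The last gene, 4930581F22Rik, is annotated as a long non-coding RNA of chromosome 9. Its divergent probe (chr9:34938381-34938440, plus strand) was designed on base 2275 of the RefSeq transcript and gave -6.12, -5.24, -5.66 and -4.75 in NZO and 2.36, 1.38, 2.11 and 1.69 in B6. NZO was at background, and B6 was at least 66.6-fold higher. The second probe (chr9:34927633-34927692) lies 10748 bases upstream on the genome and was designed on another, cDNA-derived transcript. Its levels were -3.06, -4.12, -3.23 and -2.93 in NZO and -3.45, -3.39, -3.47 and -3.62 in B6. The strains overlapped, and 3 of the 4 NZO arrays were above background. Of the probes of Dcps, on the opposite strand, one lies 5584 bases from the divergent probe, with all NZO arrays at background and all B6 arrays above it, and B6 was at least 1.66-fold higher there. The other lies 6266 bases away and differed by -0.29.

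The difference between the probes of a gene can be taken within each array, where it does not depend on the scaling of that array, and it shows that the probes changed unequally but not which of them stayed the same. The gap, the NZO minus B6 difference of the divergent probe minus that of the second probe, was -8.50 in Thumpd1, -7.59 in Rbbp9, -7.48 in Med8, -7.47 in 4930581F22Rik, -6.91 in Ints11, -6.42 in Arsk, -5.78 in Apol10b and 6.05 in Tox4. In all 8 genes the within-array differences of the 4 NZO mice did not overlap those of the 4 B6 mice. The choice of the genes by wide gaps favoured this. The share over all genes was not computed, so nothing is read from this count. The arrays were scanned on 2 days and lay on 5 slides, and 1 slide held both strains. On the first scan day, with 3 NZO and 2 B6 mice, the gap was 6.13 in Tox4 and between -8.57 and -5.71 in the others. On the second, with 1 NZO and 2 B6 mice, it was 6.09 and between -8.61 and -6.21. Within the slide that held 1 NZO and 2 B6 mice it was 6.27 in Tox4 and between -8.41 and -4.0 in the others, with NZO 003 as the NZO mouse.

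The size of the gaps depended on how the background was treated. With normexp correction of the raw intensities in place of the processed signal, the gap of Tox4 was 5.0, while those of the genes at background in NZO shrank to -3.60 in Thumpd1, -3.72 in Rbbp9, -2.75 in Med8, -3.17 in 4930581F22Rik, -1.83 in Arsk and -1.21 in Apol10b. That of Ints11 was -3.16. The direction was the same in all 8 genes, whose choice by these gaps favoured it.

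Unequal strain differences at the probes of a gene were not particular to these genes. The 5379 genes with 2 or more tested probes include the 8 genes and loci that the files name by their interval. Among the 5379, 762 (14.2%) were discordant, that is, a probe passed the thresholds and another did not pass them in the same direction. The count was 324 with normexp correction, 422 with the deposited table and 1196 with slide as a fixed term. In 34 genes (0.632%) probes passed in both directions, and 30 genes (0.558%), the 8 among them, had a gap of at least 4 on the log2 scale. The median of the gaps was 0.228 and their 95th percentile 1.53. Of the 8 genes, 6 have gaps that rest on a probe at background in NZO and shift with the treatment of the background, so they are not ranked among the others. All 8 were discordant, which the choice of the genes fixed. In Rbbp9, Arsk and Apol10b the differences of both probes lay beyond 0.7 in opposite directions, which is given as a description and without a test. The second probe of Rbbp9, at 0.71, was close to that limit. That of Apol10b is shared with other genes, its strains overlapped, and only 2 of the 4 B6 arrays were above background. Wide fitted gaps occurred outside the list too. A locus on chromosome 6 that the files name by its interval and that has 9 tested probes had a gap of 9.42, and Ifi203 had 5.22, with the lowest probe above background on all 8 arrays in both. In another such locus, on chromosome 17 (6.16), and in Trim12a (6.41) and Enpp1 (5.90) the lowest probe was at background on all NZO arrays. These were chosen after their values were seen. In 89 genes a probe was at background on all NZO arrays and above it on all B6 arrays while another was above background on all 8 arrays, and Thumpd1, Rbbp9, Med8 and Arsk were 4 of these. The reverse, a probe at background in B6, was found in 9 genes. Of single probes, 279 were at background in NZO and present in B6, and 97 the other way round.

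**Figure D3:**
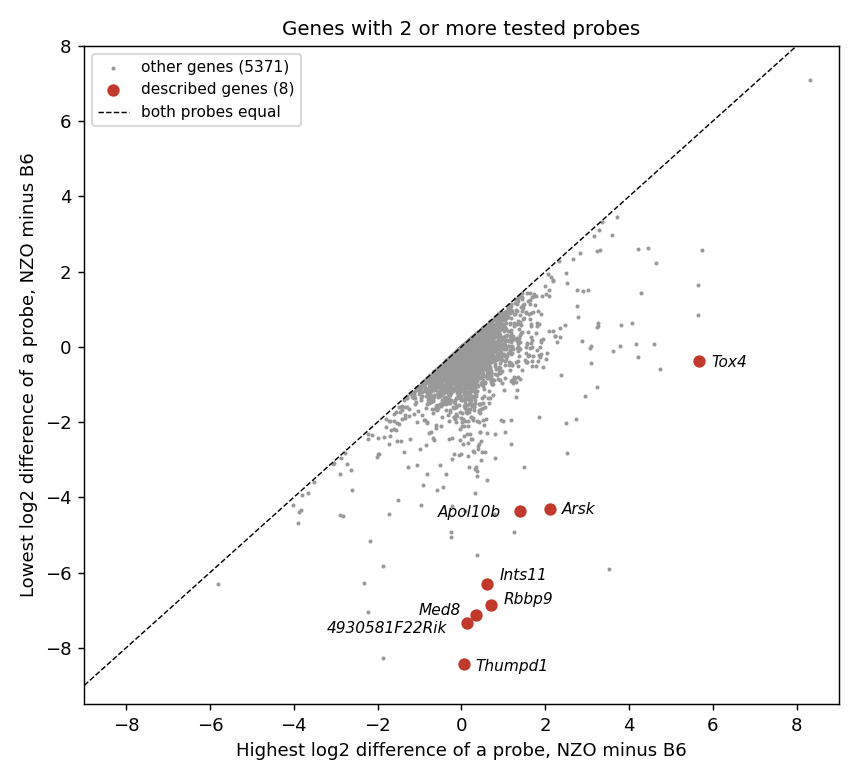
Highest against lowest NZO minus B6 difference (log2) among the probes of each of the 5379 genes with 2 or more tested probes; the 8 described genes are in red, and genes on the dashed line have probes with equal differences. Most genes lie close to the line, with a median gap of 0.228. The 7 genes with a low probe in NZO lie below it with a highest difference between 0.07 and 2.11, and Tox4 lies to its right at 5.67.

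Partner and family genes of the 8 were compared too, which does not show which probe of a pair stayed the same. Each of these genes was represented by its brightest probe and tested with limma over all probes. In the whole set of 20129 genes without the 8, 11.8% passed the thresholds and 9.4% passed with an adjusted p, and the median difference was 0.03. Of the other Integrator subunits, 12 were tested, 1 rose and none fell, with a median of 0.10. The one that rose was Ints10, by 0.91 (SE 0.12, limma adjusted p = 0.00129), with all 4 NZO mice above the B6 mice. Ints9, which pairs with Ints11 in the cleavage module, differed by -0.23 (limma adjusted p = 0.156). Of 32 further Mediator subunits, 1 fell and none rose, with a median of 0.00. This was Med1, the subunit contacted by nuclear receptors, which fell by 1.5 (SE 0.11, limma adjusted p = 7.88e-05) without overlap at its brightest probe. Med1 has 4 tested probes, and their differences ran from -1.5 to 0.32, so its probes disagreed as well and the fall holds for the brightest one only.

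None of the 7 tested partners of the PTW/PP1 complex and Tox relatives passed the thresholds, and their median was 0.24. Ppp1r10, the scaffold of the complex, differed by 0.24 (limma adjusted p = 0.286). Wdr82, another subunit, had a difference of 0.41 that was below the fold threshold (limma adjusted p = 0.0217). None of the 5 genes of transfer RNA acetylation and of the THUMP domain passed, with a median of 0.05. Among them Nat10, the acetyltransferase that Thumpd1 assists, differed by 0.16 (limma adjusted p = 0.547). None of 8 retinoblastoma family genes and binding proteins passed either, with a median of -0.10.

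Of the sulfatases and their activators, 11 were tested, 2 rose and 1 fell, with a median of 0.04. Arsg, a lysosomal sulfatase of heparan sulfate, rose by 1.38 (SE 0.21, limma adjusted p = 0.00324), and Galns, which removes sulfate from keratan and chondroitin sulfate, rose by 0.86 (SE 0.12, limma adjusted p = 0.00171). Arsa, the sulfatase of sulfatides, fell by 0.79 (SE 0.11, limma adjusted p = 0.00186). Strains did not overlap for any of these. Of 9 other genes of glycosaminoglycan breakdown, only Glb1, the lysosomal beta-galactosidase, passed, and it fell by 1.15 (SE 0.09, limma adjusted p = 8.50e-05), while the median of the list was -0.08. Of 12 apolipoprotein L genes, 7 were tested, with a median of -0.48. Apol10a, in the same cluster and 93085 bases from Apol10b on GRCm38, rose by 4.31 (SE 0.58, limma adjusted p = 0.00166), with NZO between 2.01 and 2.98 and B6 between -3.29 and -0.67. Apol11b passed the unadjusted threshold at -0.73 (limma adjusted p = 0.155), but only 1 of the 4 NZO arrays was above background and the strains overlapped. Paralogs in this cluster can share sequence, so signals of one can reach probes of another.

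The nearest 2 tested genes on each side of each of the 8 genes, 32 in all, were compared in the same way. Of these, 6 rose and 5 fell at the unadjusted threshold, 10 with an adjusted p, and the median was -0.08. Over the 20129 genes, the shares were 11.8% and 9.4%. With normexp correction 6 neighbours passed in place of 11. Farthest from 0 were Apol10a and Sall2, a zinc finger gene near Tox4. Sall2 fell by 2.39 (SE 0.35, limma adjusted p = 0.0026) with 2 of the 4 NZO arrays above background. Acsm2, a medium-chain acyl-CoA synthetase gene near Thumpd1, rose by 1.89 (SE 0.31, limma adjusted p = 0.00436). Hyi, a putative hydroxypyruvate isomerase gene near Med8, rose by 1.12 (SE 0.10, limma adjusted p = 0.000164). The others past the thresholds were Elovl1 near Med8 (0.82), Rfesd near Arsk (1.1), Rab2b near Tox4 (0.87), Cptp near Ints11 (-0.96), Acsm3 near Thumpd1 (-0.83), Tirap near 4930581F22Rik (-0.73) and Apol11b near Apol10b (-0.73). The value of Cptp is that of its brightest probe, and its other tested probe was at background on all NZO arrays and at least 6.2-fold higher in B6. None of the 4 neighbours of Rbbp9 passed.

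**Figure D4:**
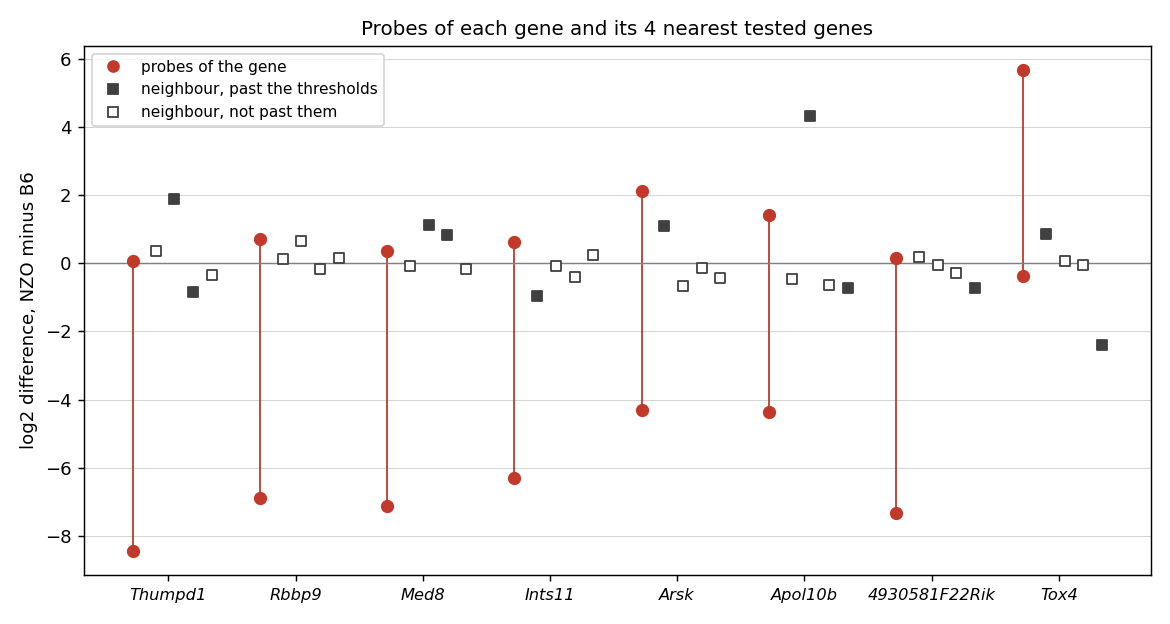
NZO minus B6 difference (log2) of both probes of each gene, joined by a red line, and of its 4 nearest tested genes as squares, filled where the neighbour passed an unadjusted p of 0.05 and a log2 difference of 0.7. Of the 32 neighbours, 11 are filled. Apol10a at 4.31 and Sall2 at -2.39 lie farthest from 0, and the other squares lie between -0.96 and 1.89.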

How the data were processed

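Per the labels and the methods, total RNA with a RIN above the limit set by the study was labelled with Cy3 after linear amplification and hybridised to Agilent arrays. The authors deposited, per the file headers, the intensity of every spot from Agilent Feature Extraction 11.0.1.1 (the labels name 9.1), with positions on mm9. The processed signal is the intensity after background subtraction and trend correction within the array, without scaling between arrays. The deposited table for all arrays, which is named as normalized, equalled the raw median intensity of all 59305 spots of each array (tolerance 0.01) and was used as an alternative.

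Controls and spots marked as outliers, 96 to 137 on an array, were not used, and no spot was saturated. The 75th percentile of the processed signal was 119 to 142 in NZO and 136 to 159 in B6, and 50.4% to 60.1% of spots were well above background. The log2 signal minus this percentile was averaged over the spots of a probe, which gave 55681 probes, of which 27643 stood clearly above background in every mouse of at least 1 strain and were tested. Their number of arrays limits the precision, and the labels do not say whether mice shared a litter or cage. Gene names were updated by accession (27656 probes), another accession (85), symbol (3347) or synonym (312) through the RefSeq gene table of GRCm38, and 24281 probes kept the name in the files. The strains were compared without a block in limma (version 3.58.1, under R 4.3.3, files read with data.table, version 1.17.8), after the procedure had been tested on simulated data. A probe was called at an unadjusted p of 0.05 and a log2 difference of 0.7 in either direction, as in the methods, with Benjamini-Hochberg counts beside it. Tables were made with pandas 2.3.3 and plots with matplotlib 3.10.9, under Python 3.11.15.

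The genes, lists and markers were chosen with earlier results of these data known. Named were all 8 genes, up to 4 called genes without overlap per list, the markers, and nearby probes by distance. Partners fixed by name (Nat10, Ppp1r10, Wdr82, Ints9) and all neighbours past the thresholds were named as well. Of these neighbours, Apol11b had overlapping strains. Alternatives were normexp background correction (offset 50), quantile normalization, the deposited table, no filter on dim probes, slide as a random or fixed block, scan day, mouse number as a replicate block, the methods' t-test with Welch correction, leaving out each mouse, and, added after the data were seen, values within scan days and within a slide.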

Additional observations from a re-analysis of the deposited data

Results flagged for a closer look

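Of 70 groups of 4 arrays, 4 had an array that stood apart from the other 3 by Dixon's criterion, and chance gives about 1 in 20 groups. At the second probe of Rbbp9, NZO 007 lay at -0.73, below the other NZO mice. At the divergent probe of Tox4, NZO 009 lay at 4.23 and B6 015 at -1.44, each the lowest of its strain, and the strains stayed far apart. Itgax, a marker of dendritic cells and other leukocytes, was highest among the B6 mice in B6 015, at -1.18.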

How the results depend on the processing

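All 8 gaps kept their direction under 16 other settings and in the 3 comparisons within scan days and a slide. The fit with slide as a fixed term and the comparison within the slide gave the same gaps, as only that slide held both strains. All 8 genes stayed discordant, also when each mouse was left out (8 to 8). The choice of the genes fixed this count and favoured the direction of the gaps, so no stability is read from either. With normexp, 1266 probes were called (652 higher, 614 lower), 1199 after adjustment, 324 genes were discordant and 6 neighbours called. With the deposited table the counts were 1808 probes (917 higher, 891 lower), 1700 after adjustment, and 422 discordant genes, and the gaps were -4.70 in Thumpd1, -4.75 in Rbbp9, -3.78 in Med8, -4.09 in Ints11, -2.78 in Arsk, -1.99 in Apol10b, -4.10 in 4930581F22Rik and 5.59 in Tox4. Without a filter on dim probes, 1765 genes were discordant, of 11171 with several probes (15.8%). With slide as a fixed term, 1481 probes passed after adjustment and 1196 genes were discordant. With the methods' t-test, 1721 passed after adjustment. Mouse numbers 009 and 011 occur in both strains, but same-numbered mice did not deviate together (correlations of -0.26 and -0.00). With the mouse number as a replicate block, 206 probes passed after adjustment. Without 1 mouse in turn, 3339 to 3720 probes were called (1404 to 1564 higher, 1908 to 2239 lower), 2336 to 2668 after adjustment, with 760 to 899 discordant genes, 11 to 15 listed genes and 10 to 12 neighbours. Without NZO 003 the gap of Ints11 was -7.87. Where a strain was at background, the arrays give only a bound, which was computed on the processed signal alone. Depth in reads has no counterpart here, and 4 arrays per strain limit the precision.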
